A study of Mus musculus with 8 samples.

Results

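The 7 features described here are mouse genes that carry a miRNA annotation: Mir677, Gm24148 (also named Mir3535), Mir5099, Mir1949, Mir3068, Mir6240 and Mir6236. They were picked by name from 2202 annotated miRNA features because earlier results of the same data had shown them low in, or variable between, AGO2 immunoprecipitates (IPs), and because none overlaps a snoRNA or tRNA gene in RefSeq. Their values in the IP are therefore given as a description, with no test. B cells came from spleens of Ago2HA/HA mice, in which AGO2 carries the HA epitope, so that every group shares this allele. They were isolated by removing CD43-bearing cells and were either resting or activated in culture (proliferating). Small RNA was sequenced from 2 input and 2 anti-HA IP libraries of each state, 8 libraries in all. Cells lacking the epitope yielded no RNA in the IP, according to the labels, so the input is the reference. Whether both libraries of a group come from different mice is not stated in the labels, and the p-values given cover the spread from library to library, which may be technical.

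A canonical miRNA is cut from a hairpin by DROSHA and then DICER, and 1 strand of the short duplex is loaded into an Argonaute protein such as AGO2. The loaded strand finds its targets mainly through its seed, bases 2 to 8. Deep sequencing has also placed miRNA annotations on loci whose short RNAs are pieces of other abundant RNAs, such as small nucleolar RNAs (snoRNAs). Box C/D snoRNAs guide RNA methylation, usually lie in introns of host genes, and carry a C box (core UGAUGA) near their 5′ end and a D box (core CUGA) near their 3′ end, brought together by a short terminal stem.

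The hairpins of Mir677 and Gm24148 are shown first because both hold these letters, with the first UGAUGA and the last CUGA in capitals (RefSeq, GRCm38.p6, 5′ to 3′).
Mir677 hairpin: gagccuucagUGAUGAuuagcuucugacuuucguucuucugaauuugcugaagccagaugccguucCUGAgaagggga
Gm24148 hairpin: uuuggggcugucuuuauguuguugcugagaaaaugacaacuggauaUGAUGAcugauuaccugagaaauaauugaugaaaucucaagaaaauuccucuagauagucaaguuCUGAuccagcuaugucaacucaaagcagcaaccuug
UGAUGA followed by a later CUGA, searched on the annotated strand only, was found in 5 of 1005 RefSeq hairpins (0.498%). Of the 190 hairpins whose features had enough counts to be tested, 2 held both (1.05%), and these were Mir677 and Gm24148. Only 1 hairpin searched overlaps a box C/D snoRNA gene by name, that of Mir5121 over Snord33, and it did not hold both. The letters therefore do not mark every hairpin over such a gene. In Mir677 the last CUGA ends 60 nt after the UGAUGA begins, and in Gm24148 69 nt. The 2 begin at nt 11 and 67 of the 78 nt of Mir677. In Gm24148 they begin at nt 47 and 112 of 147 nt, further from the ends of the annotated hairpin. Within 10 nt outside the boxes, the longest perfectly complementary stretches were 5 nt long in both. They were ccuuc with gaagg in Mir677 and cugga with uccag in Gm24148. The other 3 hairpins with the letters reached at most 3 nt. Each of these begins or ends too close to a box to hold 5 nt there, so they give no comparison. The matches describe letters and do not show that a snoRNA is made. RefSeq lists no snoRNA gene at either place. The nearest are Snord59a, 1070 nt from Mir677, and Snora75, 696 nt from Gm24148.

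The annotated mature sequences of these features and of Mir6240 and Mir6236 show what would have to be loaded if the annotations held, with the seed in capitals.
mmu-miR-677-5p: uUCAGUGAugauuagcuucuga
mmu-miR-677-3p: gAAGCCAGaugccguuccugagaagg
mmu-miR-3535: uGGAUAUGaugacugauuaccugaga
mmu-miR-6240: cCAAAGCAucgcgaaggcccacggcg
mmu-miR-6236: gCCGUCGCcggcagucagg
The miR-677-5p and miR-3535 sequences both contain UGAUGA, which 12 of 1738 RefSeq mature sequences contain (0.690%). Mature sequences of 26 nt or more are rare (15 of 1738, against a median of 22 nt), and miR-677-3p, miR-3535 and miR-6240 are 3 of the 15. No seed was shared among the 5 features with a mature sequence in the RefSeq table, which has none for Mir5099, while Mir1949 was not compared. The seed of miR-6240 is also that of miR-330-3p.

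The Mir3068 hairpin is shown for contrast in folding energy, with both annotated arms in capitals. Mir677 also has 2 annotated arms.
Mir3068 hairpin: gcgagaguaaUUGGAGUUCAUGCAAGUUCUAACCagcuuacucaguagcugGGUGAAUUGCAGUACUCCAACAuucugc
Folding energies predicted by RNAfold separated the 5 features whose hairpins were folded. Mir6240 (-0.21 kcal/mol per nt), Mir677 (-0.22) and Gm24148 (-0.26) were among the least stable of the 190 tested hairpins, with 2, 3 and 6 less stable than each. Mir5099 (-0.36, with 43 less stable) and Mir3068 (-0.40, with 70 less stable) lay further in, and the median was -0.42. The share of paired bases in the most paired mature sequence differed less. It was 77.3% in Mir3068, 80.8% in Mir677, 76.9% in Gm24148 and 73.1% in Mir6240. Of the 190, only Mir3969 (-0.19 kcal/mol per nt) and Mir7j (-0.20) had a weaker fold than all 5 of these. Their log2 fold changes of IP over input were -1.20 and 0.35 in resting and -0.78 and -1.49 in proliferating cells. Mir21b (-0.23 kcal/mol per nt) and Mir7073 (-0.23) also had a weaker fold than Gm24148. Their log2 fold changes were 4.68 and 2.16 in resting and 0.64 and 0.60 in proliferating cells, with low levels in the resting inputs. A link between folding energy and recovery in the IP was not tested.

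**Figure D1:**
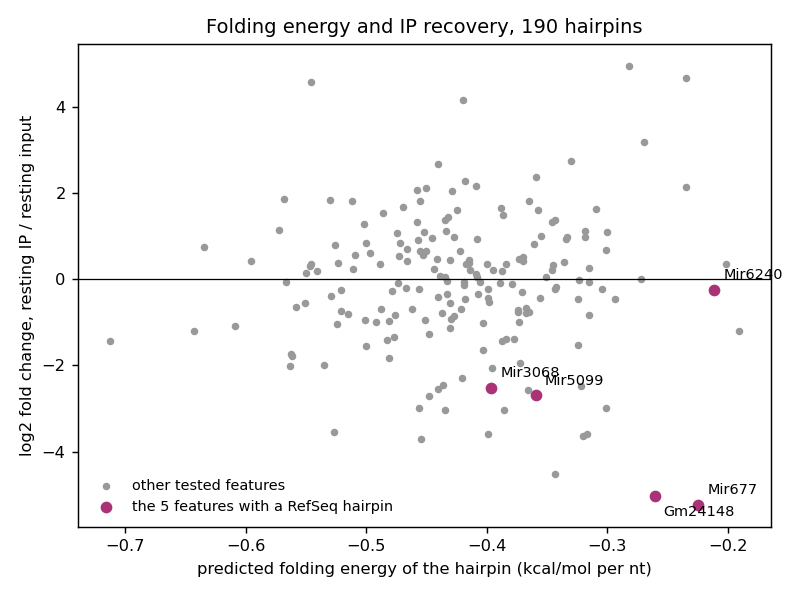
Predicted folding energy per nucleotide (x axis) against the log2 fold change of resting IP over resting input (y axis). The points are the 190 tested features with a RefSeq hairpin outside chromosome 18. Mir677 (-0.22 kcal/mol per nt) and Gm24148 (-0.26) sit at the lower right, with weak folds and the lowest recovery in the IP, while Mir6240 folds as weakly (-0.21) and lies near 0.

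The genomic setting differs among the features (mm10 coordinates, from the files). Mir677 (ENSMUSG00000104755.1, chromosome 10, 128085286 to 128085363, plus strand) lies within Atp5b, the gene of the β subunit of mitochondrial ATP synthase, on the same strand. Gm24148 (ENSMUSG00000104627.1, chromosome 1, 86351981 to 86352127, minus strand) lies within Ncl, the nucleolin gene, on the same strand. Mir3068 (ENSMUSG00000105428.1, chromosome 12, 87437679 to 87437757, minus strand) lies within Alkbh1, on the same strand. Mir1949 (ENSMUSG00000105743.1, chromosome 18, 35554567 to 35554636, plus strand) lies within Snhg4, a long noncoding snoRNA host gene, 2394 nt from Snora74a. Mir6236 (ENSMUSG00000098973.1, chromosome 9, 110281287 to 110281409, plus strand) lies within the span of the lncRNA Gm39429 on the opposite strand. Mir5099 (ENSMUSG00000092998.1, chromosome 12, 36816205 to 36816278, plus strand) and Mir6240 (ENSMUSG00000098343.1, chromosome 5, 114851948 to 114852064, plus strand) overlap no RefSeq gene of the types searched. These were protein-coding and lncRNA genes and genes of small RNAs such as snoRNAs and tRNAs. Gene spans do not separate exons from introns. None of the 7 overlaps another counted feature.

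Library totals ran from 213418 to 1681148 counts. The limit that a count of 0 allows, 3 counts, corresponds to between 2.24 and 10.5 CPM (counts scaled to a common library size, here with TMM factors). Of the 2202 features 560 had a count and 219 had enough to be tested, including all 7 described here. The B cell miRNAs Mir150 and Mir155 made up 13.9% to 31.9% of each library. Of 12 markers of other lineages the erythroid Mir451a matched no named feature, and 9 of the other 11 had counts. Among resting cells their summed share was 1.19% and 2.91% of the input libraries and 1.48% and 2.99% of the IP libraries. Among proliferating cells it was 0.295% and 0.430% of the input and 0.285% and 0.161% of the IP libraries. The myeloid Mir223 made up most of it except in the proliferating IPs, where the endothelial Mir126a had more counts, and the neural Mir124a-1 and Mir9-1 were at 0.

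Together the 7 features took 0.760% and 0.685% of the resting inputs and 0.694% and 0.664% of the proliferating inputs. In the IPs they took 0.0551% and 0.548% (resting) and 0.0550% and 0.0544% (proliferating), where each pair gives replicates 1 and 2. The high share in resting IP replicate 2 came from Mir6236. Without it the other 6 features took 0.0190% and 0.0412% of the resting IPs against 0.654% and 0.642% of the resting inputs, and 0.0357% and 0.0286% of the proliferating IPs against 0.659% and 0.604% of the proliferating inputs.

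**Figure D2:**
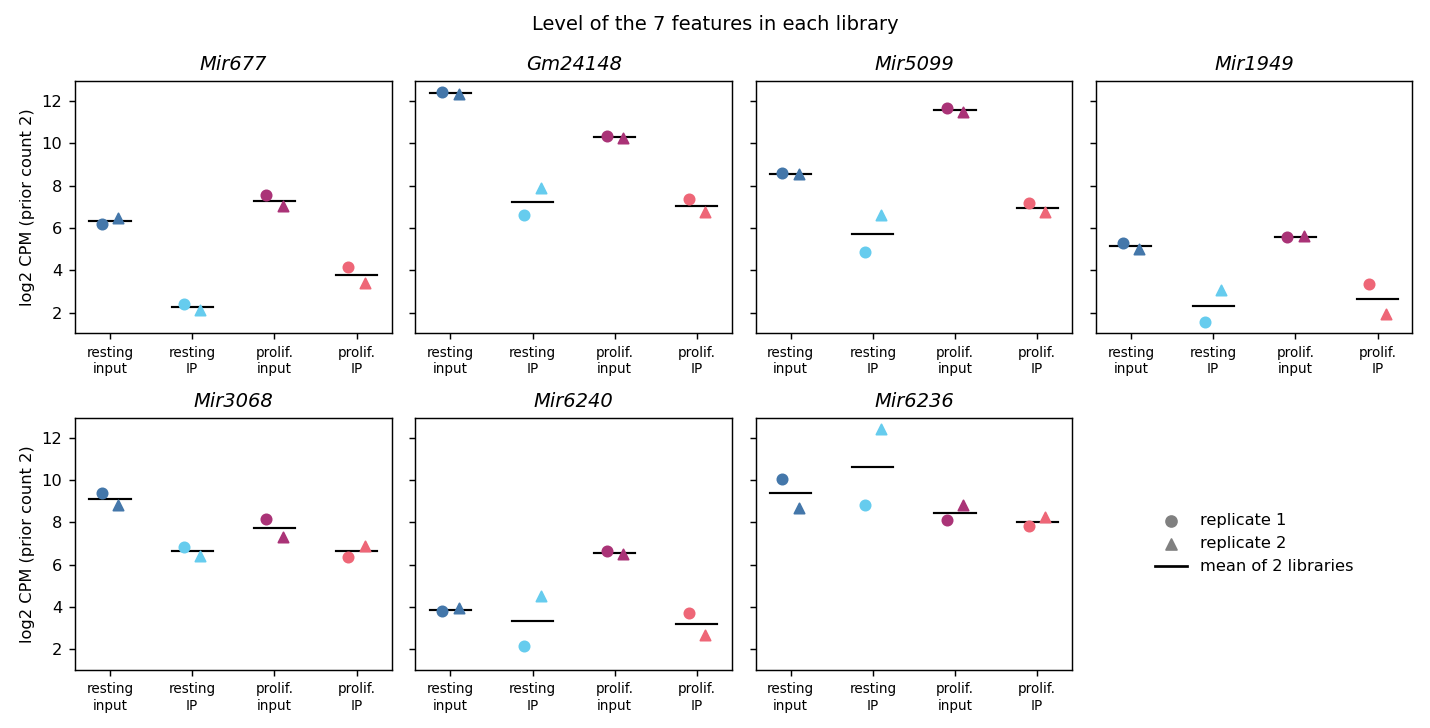
Level of each feature in the 8 libraries as log2 CPM (TMM-scaled, prior count 2), with replicate 1 as circles, replicate 2 as triangles and the mean of the 2 libraries as a line. For Gm24148, Mir5099, Mir677, Mir1949 and Mir3068 both IP libraries lie under both input libraries in each state, while Mir6236 is highest in resting IP replicate 2.

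The input difference between the states played no part in choosing the features and is the only one tested for them. Of the 7 features 2 rose in resting cells (Gm24148 and Mir3068), 2 fell (Mir5099 and Mir6240) and 3 did not pass (quasi-likelihood test of edgeR with p-values adjusted by Benjamini-Hochberg over 219 features, threshold 0.05). Over all tested features 49.3% passed, 23.3% higher and 26% lower, so that 4 of 7 is near the background. The counts of each state came in a table of their own, so state and table cannot be told apart, nor can fewer cells of a type and less RNA per cell in these bulk libraries. The split of all calls moved with scaling, from 51 higher and 57 lower to 37 and 75 with library totals and to 59 and 39 with upper-quartile factors, which shifted the fold changes by a median of -0.35 and 0.36 on the log2 scale.

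Mir5099 had 383 and 368 CPM in the resting inputs and 3251 and 2883 CPM in the proliferating inputs. Both resting libraries were far below both proliferating ones, an 8.16-fold difference (log2 fold change -3.03, SE 0.39, edgeR adjusted p = 2.8e-08). Gm24148 went the other way, at 5394 and 5147 CPM in the resting inputs and 1278 and 1224 CPM in the proliferating inputs. Its level was 4.21-fold higher in resting cells (log2 fold change 2.07, SE 0.34, edgeR adjusted p = 3e-06). These calls held under each of the 15 alternatives run, with adjusted p up to 0.0028 for Mir5099 and 0.031 for Gm24148. Mir677, which shares the box letters with Gm24148, was not higher in resting input: it had 70.0 and 85.9 CPM there and 186 and 126 CPM in proliferating input (log2 fold change -1.0, 95% interval -2.28 to 0.27, edgeR adjusted p = 0.17).

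Mir3068 had 675 and 454 CPM in the resting inputs and 279 and 158 CPM in the proliferating inputs. It rose 2.57-fold in resting cells (log2 fold change 1.36, SE 0.41, edgeR adjusted p = 0.0058), but the call was lost without resting input replicate 1 (log2 fold change 1.0, edgeR adjusted p = 0.15) or without proliferating input replicate 2 (0.87, edgeR adjusted p = 0.13). Mir6240 rests on few counts, 4 and 5 in the resting inputs and 34 and 25 in the proliferating inputs. The level in resting cells fell to 11.2 and 12.3 CPM from 96.0 and 87.7 CPM, a log2 fold change of -2.95 (SE 1.0, edgeR adjusted p = 0.015). Its call was lost without resting input replicate 1 (edgeR adjusted p = 0.072) or 2 (0.075), without proliferating input replicate 1 (0.12) or 2 (0.099), without proliferating IP replicate 1 (0.060) and with upper-quartile factors (0.058), while the log2 fold change stayed between -3.30 and -2.58.

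Mir6236 had 1064 and 408 CPM in the resting inputs and 274 and 445 CPM in the proliferating inputs, and the groups overlapped (log2 fold change 1.03, 95% interval -0.02 to 2.09, edgeR adjusted p = 0.097). The value passed with the replicate number as a block (log2 fold change 1.27, edgeR adjusted p = 0.0018), without the filter on low counts (1.01, edgeR adjusted p = 0.0090), without resting input replicate 2 (1.65, edgeR adjusted p = 3.8e-04), without resting IP replicate 1 (1.26, edgeR adjusted p = 1.4e-04) and without resting IP replicate 2 (1.23, edgeR adjusted p = 0.0013). Over all 15 alternatives the adjusted p ran from 1.4e-04 to 0.80. Mir1949 had 13 and 12 counts in the resting inputs and 16 and 13 in the proliferating inputs, and its log2 fold change of -0.46 had a 95% interval from -2.54 to 1.61 (edgeR adjusted p = 0.73). At this depth a difference of that size was not detectable.

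**Figure D3:**
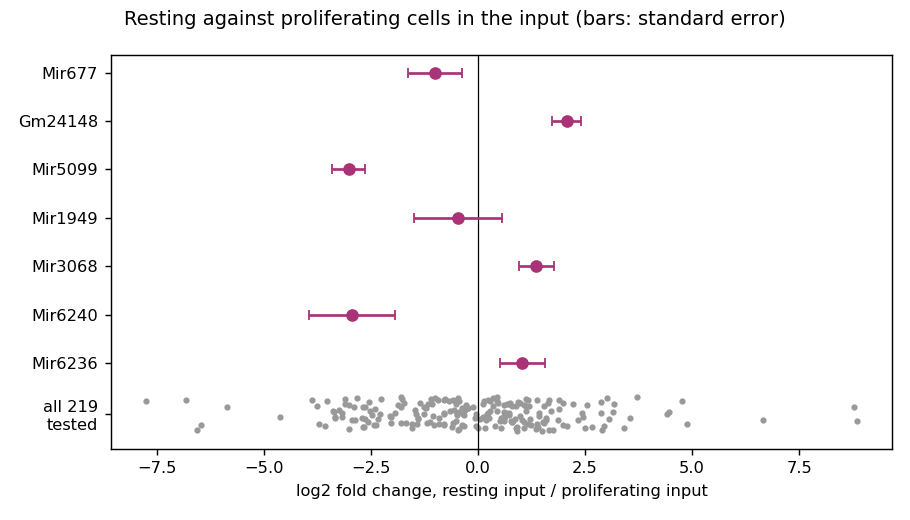
Log2 fold change of resting over proliferating input with its standard error for each feature, above all 219 tested features as grey points. Gm24148 (2.07) and Mir3068 (1.36) lie to the right of 0, Mir5099 (-3.03) and Mir6240 (-2.95) to the left, and the spread over all features is as wide.

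The comparison of IP with input was used to choose the features, and the values that follow describe how far each was from the input. In resting cells 5 of the 7 had both IP libraries below both inputs, while 34.7% of all tested features did. In proliferating cells 6 of 7 did, where 30.6% of all tested features did. Nothing is read from these counts, since the choice of features fixed them. Among the 7, the largest differences were those of Mir677 and Gm24148 in resting cells and of Mir5099 in proliferating cells.

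Gm24148 had 95.5 and 232 CPM in the resting IPs against 5394 and 5147 CPM in the inputs, a log2 fold change of -5.03 (SE 0.39, or -6.03 without resting IP replicate 2). In proliferating cells it had 162 and 104 CPM in the IPs against 1278 and 1224 CPM, a log2 fold change of -3.24 (SE 0.36). Its level was thus similar in the IPs of both states (164 ± 96.2 and 133 ± 41.1 CPM, mean ± SD, n = 2), and the 2 states differed in the input. Mir677 had counts of 3 and 1 in the IPs of resting cells and of 10 and 9 in those of proliferating cells. Its log2 fold change was -5.24 (SE 0.85) in resting and -3.84 (SE 0.72) in proliferating cells. These were the 2 lowest of 219 values in resting cells. Just behind them came ENSMUSG00000105167.1, which overlaps Snord43 within Rpl3 (-4.57), and Mir5121, which overlaps Snord33 within Rpl13a (-4.51).

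For Mir5099 the larger difference was in proliferating cells. It had 26.1 and 93.7 CPM in the resting IPs against 383 and 368 CPM in the inputs (log2 fold change -2.70, SE 0.40), and 140 and 103 CPM in the proliferating IPs against 3251 and 2883 CPM (-4.66, SE 0.42). The resting value was -4.08 without resting IP replicate 2 and -2.07 without replicate 1, so that the gap between the states depended on that library. The proliferating value was the second lowest of the 219 values in proliferating cells, behind Mir6399 (-4.98). Mir1949 had counts of 0 and 4 in the IPs of resting cells and of 5 and 1 in those of proliferating cells, with log2 fold changes of -3.80 (SE 1.25) and -3.59 (SE 1.19). All 4 counts lay in resting IP replicate 2, so that without it the resting IP was at 0. The resting value was -2.64 without resting IP replicate 1, and the proliferating one was -5.40 without proliferating IP replicate 1 and -2.63 without replicate 2.

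Mir3068 was lower in the IP by the least among the features low in both states. It had 113 and 83.0 CPM in the resting IPs against 675 and 454 CPM (log2 fold change -2.52, SE 0.42), and 80.4 and 114 CPM in the proliferating IPs against 279 and 158 CPM (-1.17, SE 0.41, or -1.87 without proliferating input replicate 2). Its hairpin has a folding energy nearer the middle of those tested than those of Mir677 and Gm24148. Both arms are annotated, but so they are in Mir677. Whether its annotation is doubtful was not tested. For Mir6240 the states differed in order. In proliferating cells it had 10.2 and 3.39 CPM in the IPs against 96.0 and 87.7 CPM (-3.80, SE 1.0, or -4.62 without proliferating IP replicate 1 and -3.17 without replicate 2). In resting cells it had 1.49 and 20.1 CPM in the IPs, on either side of the 11.2 and 12.3 CPM in the inputs (-0.24, SE 1.05). Without resting IP replicate 2 that value was -3.06, and without replicate 1 it was 0.69.

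With TMM factors Mir6236 had overlapping IP and input libraries in both states. It had 454 and 5348 CPM in the resting IPs against 1064 and 408 CPM in the inputs, so that the groups overlapped (log2 fold change 1.98, SE 0.52), and without resting IP replicate 2 the sign turned (-0.94). Without resting IP replicate 1 the value was 2.79, and without resting input replicate 1 it was 3.13. In proliferating cells it had 224 and 301 CPM in the IPs against 274 and 445 CPM (-0.45, SE 0.52), again with overlap. Without TMM factors these libraries did not overlap. The proliferating IPs held 0.0192% and 0.0258% of all counts and the proliferating inputs 0.0351% and 0.0595%. Over the alternatives the proliferating log2 fold change ran from -1.06 to -0.20. In percent of all counts, resting IP replicate 2 held 0.507% (95% exact binomial interval 0.491 to 0.522) and replicate 1 held 0.0362% (0.0333 to 0.0392). These intervals cover counting error only. The resting inputs held 0.106% and 0.0429%.

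**Figure D4:**
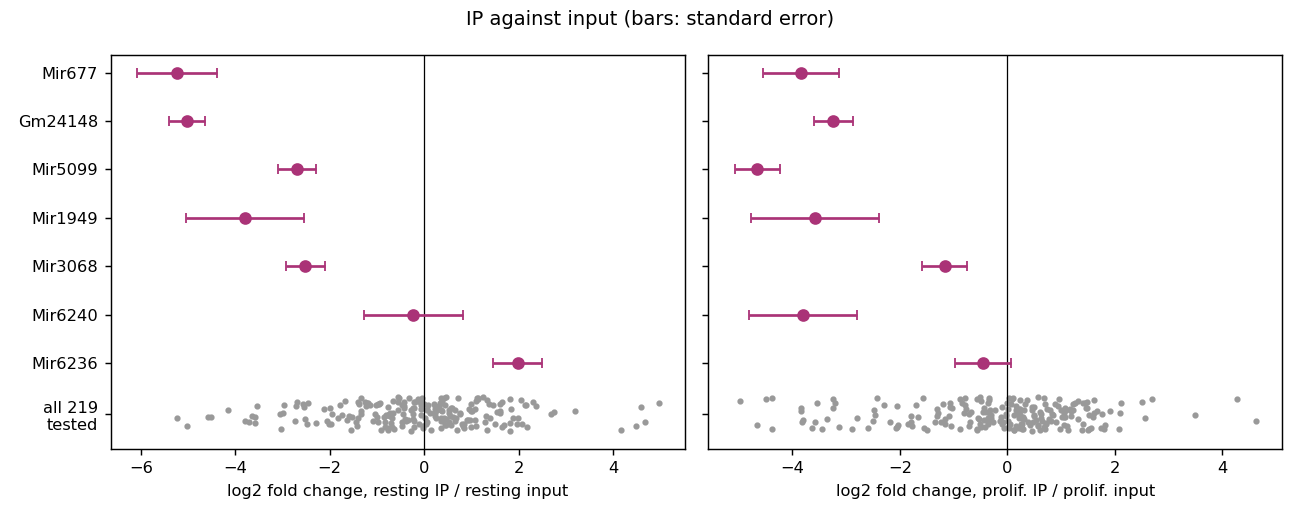
Log2 fold change of IP over input in resting (left) and proliferating cells (right) with its standard error for each feature, above all 219 tested features as grey points. Among the 7, Mir677 (-5.24) and Gm24148 (-5.03) are lowest in resting cells, Mir5099 (-4.66) in proliferating cells, and Mir6236 (1.98 and -0.45) is highest in both.

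The 2 resting IP libraries differed more for several of these features than for most others. Variability between IPs was among the reasons for choosing them, so nothing is read from the ranks and counts that follow. Between them the median absolute difference was 0.44 on the log2 scale over the 219 tested features. Mir6236 was 3.55 higher in replicate 2, the second largest difference of all, followed at rank 6 by Mir6240 (2.36) and at rank 10 by Mir5099 (1.73), while Mir1949 (1.48) and Gm24148 (1.25) ranked 21 and 30. These 5 were all higher in replicate 2, where 35.6% of all tested features were. Of the 10 tested features that overlap a snoRNA, scaRNA, snRNA or tRNA gene, 7 were higher there too. Mir677 (0.27) and Mir3068 (0.43) were higher in replicate 1, by differences under the median. Mir677 had only 3 and 1 counts there, and the prior count of 2 shrinks its difference. Its CPM without a prior count differed 1.67-fold. The summed share of other-lineage markers was also higher in replicate 2 (2.99% against 1.48%), and so it was in the resting inputs (2.91% against 1.19%), where Mir6236 was instead higher in replicate 1. Their part in the result was not tested.

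**Figure D5:**
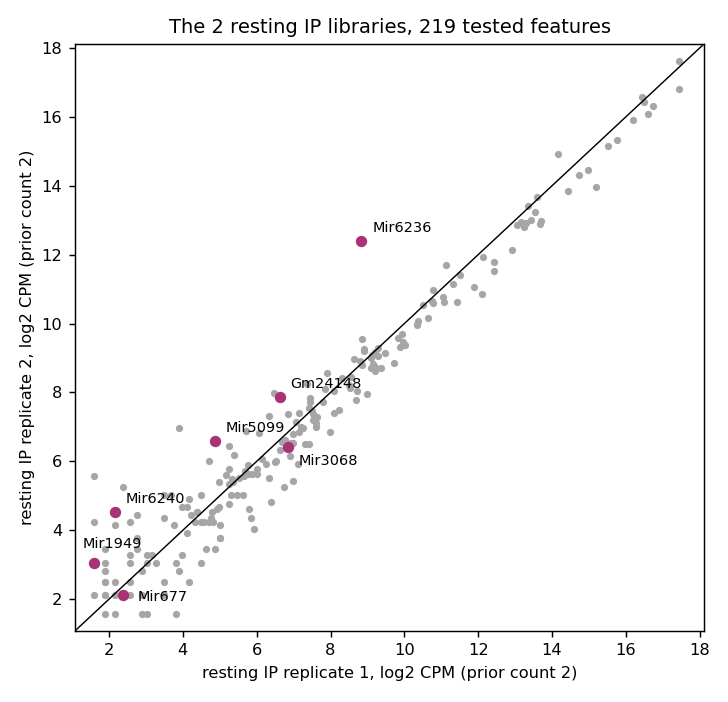
Log2 CPM (prior count 2) of the 219 tested features in resting IP replicate 1 (x axis) and replicate 2 (y axis), with the line of equal values. Mir6236 lies 3.55 above equality and Mir6240, Mir5099, Mir1949 and Gm24148 between 1.25 and 2.36 above it. Mir677 and Mir3068 lie close to the line, Mir677 with counts of only 3 and 1.

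Between states within the IP, Mir6236 differed most, at 2901 ± 3461 CPM in resting and 262 ± 54.6 CPM in proliferating IPs (log2 fold change 3.46, SE 0.55), which was 0.69 without resting IP replicate 2 and 4.44 without replicate 1. Mir677 (-2.40, SE 0.90) and Mir5099 (-1.07, SE 0.39) were lower in both resting IPs than in both proliferating ones. In all, 2 of 7 lay apart and lower and 1 of 7 apart and higher, against 42% and 32.9% of all tested features, and nothing is read from these counts, which the choice of features shaped. For Mir5099 the difference was -2.30 without resting IP replicate 2 and -0.27 without replicate 1. Gm24148 (0.29), Mir1949 (-0.67), Mir3068 (0.01) and Mir6240 (0.62) had overlapping groups, and the sign of each turned when 1 of the libraries was left out. The libraries of the 4 groups are shared by these comparisons, so their values are not independent.

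The order of the 4 groups therefore differed among the features. Gm24148 was highest in resting input, then proliferating input, with no overlap between neighbours, and its IPs overlapped each other. Mir3068 had the same order. Mir5099 ran from proliferating input through resting input and proliferating IP to resting IP, each step without overlap. Mir677 had that same order, also without overlap. Mir1949 and Mir6240 were highest in proliferating input, followed for Mir1949 by resting input, while for Mir6240 the 2 resting IP libraries spanned resting input and proliferating IP. For Mir6236 both resting IPs lay above both proliferating inputs and IPs when scaled with TMM factors. Its resting inputs overlapped the resting IPs and the proliferating inputs.

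The features most like each one over the 8 libraries were taken by Pearson correlation of log2 CPM, as a description, since the libraries share groups and depth. The difference between IP and input, on which the features were chosen, also enters these correlations. Any other feature low in the IPs tends to correlate with them, so nothing about their nature is read from the values. Gm24148 was most like Mir5121, which overlaps Snord33 (r = 0.997), then Mir30c-1 (0.967) and the Snord43 feature ENSMUSG00000105167.1 (0.947). Mir5121 had 1444 and 1230 CPM in the resting inputs, 420 and 316 CPM in the proliferating inputs, and at most 84.3 CPM in any IP. It rose in resting input as Gm24148 did (log2 fold change 1.86, edgeR adjusted p = 1.6e-04). For Mir677 the closest were Mir210 (0.977), the same Snord43 feature (0.934) and Mir1949 (0.927). Mir5099 was closest to Mir142b (0.95), Mir671 (0.922) and Mir6240 (0.917), and Mir6240 in turn to Mir5099, Mir6399 (0.894) and Mir3473g (0.884). Mir1949 was closest to Mir6239 (0.938), Mir677 and Mir30c-1 (0.906), and Mir3068 to Gm24148 (0.917), Mir5121 (0.913) and Mir331 (0.912). Mir1949, Mir6239, Mir142b, Mir6399 and Mir3473g had at most 19 counts in any library, so their correlations rest on few counts. Mir6236 had no close match, the nearest being the erythroid Mir144 (0.699), Mir26a-2 (0.674) and the myeloid Mir223 (0.672). It correlated with each of the other 6 features between -0.40 and 0.04.

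Other groups of annotations give the scale. The 10 tested features overlapping a snoRNA, scaRNA, snRNA or tRNA gene had median log2 fold changes of IP over input of -1.75 in resting and -2.49 in proliferating cells. Mir1983, over a tRNA gene, went its own way at -0.22 and 2.10. In the input 4 of the 10 rose and 1 fell in resting cells. The 12 well-supported B cell miRNA genes had medians of 0.67 and 0.49, with Mir93 at 0.79 and 1.31, Mir146 at 0.95 and 0.27 and Mir150 at -0.66 and 0.11. Of 468 other annotations with a registry number of 5000 or more, 189 had a count and 29 were tested, and their medians were -0.19 and 0.15. The most abundant of these were Mir5121, which also belongs to the first group, Mir5107 (-1.60 and -0.56) and Mir5113 (-1.41 and 0.28). The 94 tested features lying on the same strand within a protein-coding gene, as Mir677, Gm24148 and Mir3068 do, had medians of 0.16 and 0.24. Over all tested features the medians were -0.05 and 0.11. With library totals instead of TMM factors they were -0.29 and -0.50, a median shift of -0.24 and -0.61. The signs of the smaller medians given here therefore depend on the scaling and do not by themselves show enrichment in the IP.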

How the data were processed

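Per the submitters' processing notes, reads of QIAseq miRNA libraries went through STAR 2.7.9a and SAMtools 1.15 with mm10. Unnormalized counts for each annotated miRNA gene were deposited, taken from deduplicated alignments per the file headers. For the counter, strand setting and reads with several placements, nothing is given in the sources used here. Each state has a table of its own, with the same 2202 features.

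Features were named by exact coordinates in RefSeq (GRCm38.p6), which named 1179. CPM used TMM factors (0.797 to 1.34). Features kept by filterByExpr (minimum count 10) were fitted with edgeR 4.0.16 (quasi-likelihood, 4 groups, 4 residual and 36.6 prior degrees of freedom), and the fit was tested on simulated data. SE is the absolute log2 fold change over the square root of F. Alternatives were other scalings, no filter, DESeq2 1.42.0, input libraries alone, a replicate block and leaving out each library. RNAfold 2.7.2 folded the hairpins, and sequences on chromosome 18 were not used. The features and lists were chosen with earlier results of these data known. Named in the text are the 7 features, the 3 most correlated features of each and up to 3 most abundant of each list. Mir7j, Mir3969, Mir21b, Mir7073, Mir6399 and Mir126a are named too and were picked after their values were seen.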

Additional observations from a re-analysis of the deposited data

How the results depend on the processing

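Among the 7 features, 4 passed in the input between states. Leaving out 1 library each gave from 2 to 5. The 2 came without proliferating input replicate 2 and without resting input replicate 1, where fewer libraries were compared. Over all features the count of 108 ranged from 73 to 114 when libraries were left out, and those higher in resting cells (51) were 32 without proliferating input replicate 2. With the replicate number as a block 5 of the 7 features and 100 of all features passed. The labels do not say what the numbers share, and the replicate differences of the compared groups correlated between -0.09 and 0.18 over features. Among the 7 features, only the call of Mir6236 changed under the block. Features lower in the resting than in the proliferating IP numbered 3, and from 3 to 5 when libraries were left out, with 5 without resting IP replicate 2. Features below 0 between IP and input numbered 6 in resting cells (5 to 7 when libraries were left out) and 7 in proliferating cells under every alternative run. Mir677, Mir1949 and Mir6240 had under 20 counts in each IP library, which limits their fold changes.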
